A study of Mus musculus with 4 samples.

Results

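After flagellin was given through the nose, the nasal mucosa of mice labelled Duox2-/- was compared with that of wild-type mice by subtracting 1 array from another, which uses 2 of the 4 arrays of the series. RNA came from the mucosa covering the nasal septum and the turbinates. All mice were 8 weeks old and their strain is written C56BL/6 in the labels. Both groups received 25 ul per nostril of a solution with 5 ug/ml of flagellin, and tissue was taken 4 h later. The other 2 arrays, wild type and Duox2-/- under PBS, are separate samples by their labels and give the genotype difference without the bacterial protein. The sources used here do not state how the allele was made, nor if RNA of 1 mouse or of pooled mice went on each array. All probe sets that map to exactly 1 gene symbol were used, 21789 of 35556, with the brightest probe set taken for each gene, which gave 19938 genes. Every difference below is a log2 value of the array labelled Duox2-/- minus that of wild type, so a negative difference means a lower value in the former. With 1 array a side there are no replicates, hence no error and no test, and differences are described by size only.

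Duox2 is an NADPH oxidase of mucosal surfaces that releases hydrogen peroxide to the outside of the cell, and it needs the maturation factor Duoxa2 to leave the endoplasmic reticulum. Peroxide at an epithelial surface serves peroxidases that kill microbes and can also act as a signal inside the epithelium. Flagellin is the protein of bacterial flagella. It is sensed outside the cell by a Toll-like receptor and inside it by Naip and Nlrc4 proteins, and the Toll-like route switches on NF-kB, which drives chemokine and antimicrobial genes.

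The targeted gene does not check the labels. Duox2 had log2 values of 5.12 in wild type and 5.504 in the array labelled Duox2-/- after flagellin, beside 4.95 and 5.23 under PBS. Both flagellin values are dim, at the 25.2 and 28.4 percentiles of their arrays, and the array labelled Duox2-/- was not lower. Since the sources used here do not say where its probes sit relative to the allele, the value may check nothing, and the genotype is called as labelled throughout. Duox1, the paralog, differed by 0.03, Duoxa1 by 0.29 and Duoxa2 by -0.07. The lactoperoxidase gene Lpo differed by 0.41 and was dim as well. The X-inactivation transcript Xist lay between 10.3 and 10.5 in the 4 arrays, and the 5 Y-linked genes matched lay between 2.28 and 4.53. The tissue label was borne out by the olfactory marker protein gene Omp, which lay between 11.9 and 12.2 in all arrays.

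Most of the genes that differed by size were lower in the array labelled Duox2-/-. Of 12471 genes bright enough to be ranked, with at least 1 value over 6.52 (the median of all values), 206 or 1.65% were at least 2-fold lower and 44 or 0.353% at least 2-fold higher. The lower genes thus made up 82.4% of those past the size. Past the size the PBS arrays leaned the other way, with 141 genes or 1.13% higher and 35 or 0.281% lower. The lower genes were thus 19.9% of those past the size there. Of the 141, 72 were olfactory and 6 vomeronasal receptors, which made up 413 and 6 of the 12471 ranked genes. Of 26 matched skeletal muscle genes 19 were at least 2-fold higher under PBS, against 1.34% of all matched genes. The median PBS difference of all ranked genes was -0.04, with 42.3% above 0. At 4-fold the flagellin arrays held 24 lower and 5 higher genes. Pearson's r over probe sets, which are not independent, was 0.972 between the flagellin arrays and 0.979 between the PBS arrays, and the robust SD of the genotype difference over ranked genes was 0.291 after flagellin and 0.211 under PBS.

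**Figure D1:**
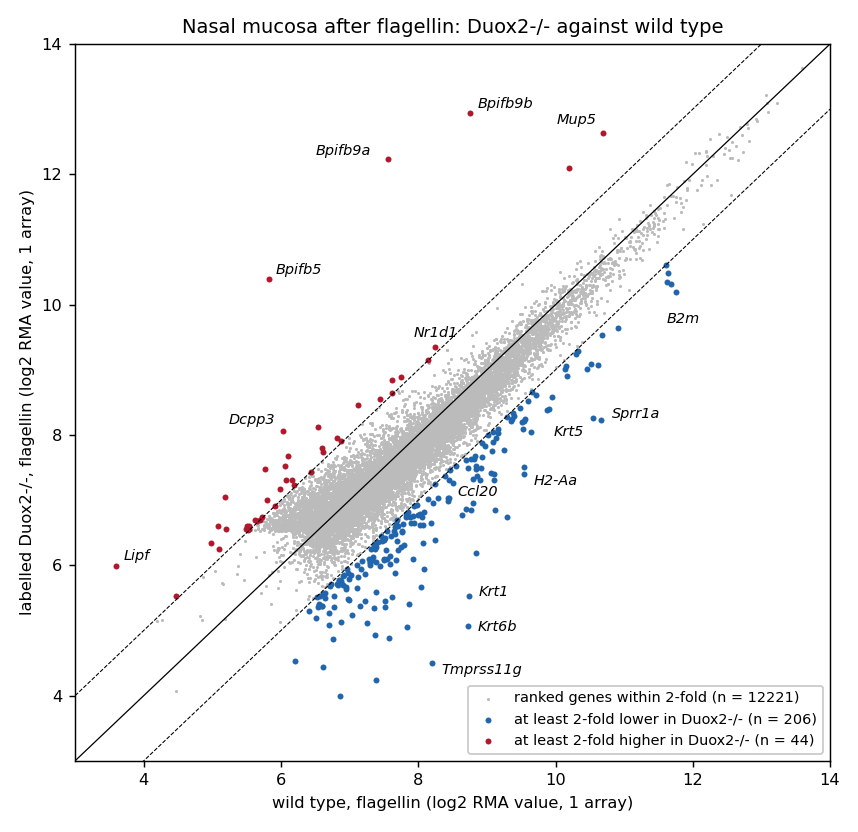
Log2 value of each ranked gene in the wild-type flagellin array (horizontal) and the flagellin array labelled Duox2-/- (vertical), 1 array each, with dashed lines at a 2-fold difference. The 206 lower genes (blue) are spread over most of the range of levels, but 61 are in the dimmest of 10 bins of the ranked genes by mean level. Of the 44 higher genes (red) 3, Bpifb9a, Bpifb9b and Bpifb5, lie far above the rest.

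The difference depended on signal level. The array labelled Duox2-/- had a narrower spread of values, with an interquartile range of 2.43 against 2.73 in wild type, and its median was 6.56 against 6.499. The median difference of the ranked genes was -0.12, and 33.2% of them were above 0. Over all matched genes the median was 0.01 and 50.6% were above 0. With the ranked genes cut by mean level into 10 bins of like size, the median was 0.27 in the dimmest bin and -0.20, -0.20 and -0.18 in the 3 brightest. The 7467 genes too dim to be ranked had a median of 0.28. Small positive differences of dim genes and small negative differences of bright genes are therefore what most genes of that level showed. The genes past the size were also concentrated in the dimmest bin, with 61 of the 206 lower and 23 of the 44 higher. Each other bin held 7 to 22 lower and 0 to 6 higher genes. A gene could be ranked through 1 bright array of the 4, and a filter on the mean of the 2 flagellin arrays left 150 lower and 26 higher.

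**Figure D2:**
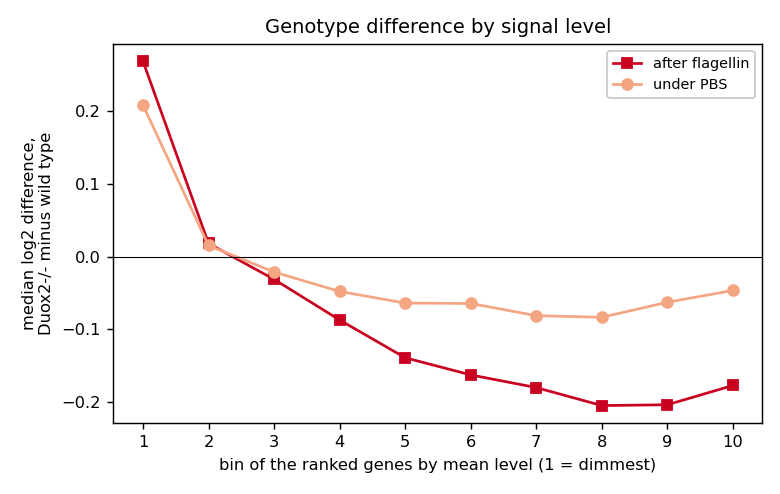
Median log2 difference, Duox2-/- minus wild type, in 10 bins of the ranked genes by mean level over the 4 arrays (1 is the dimmest), after flagellin (squares) and under PBS (circles). Both lines start above 0 in the dimmest bin and end below it, and the flagellin line reaches lower values, down to -0.20.

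Leaving out receptors, predicted or clone-named genes and small RNA genes, the lowest genes after flagellin were led by genes of layered (squamous) epithelium. Tmprss11g, an airway trypsin-like protease, had a value of 8.21 in wild type and 4.49 in the array labelled Duox2-/-, a difference of -3.71 or 13.1-fold. Krt6b, a keratin of stratified and stressed epithelium, had 8.73 and 5.07 (-3.66), and Krt1, a keratin of the layers above the basal one, had 8.74 and 5.52 (-3.22). All 3 were also lower under PBS, where Tmprss11g had 7.11 and 5.46, Krt6b 7.51 and 6.41 and Krt1 6.70 and 6.16. In each of the 3 the wild-type flagellin array was the highest of the 4 and the flagellin array labelled Duox2-/- the lowest. Choosing genes by this difference favours that order. Among the 206 lower genes the former held for 174 and the latter for 168, against 26.8% and 51.0% of all ranked genes. Next came Ifi202b, an interferon-inducible DNA-binding protein (-3.14), Tmprss11a (-2.86), the fast-muscle myosin Myh4 (-2.78), and Olfm4, a secreted glycoprotein of epithelia and neutrophils (-2.65). Krt6a was at -2.46, the alcohol dehydrogenase Adh6a at -2.43, the cornified envelope protein Sprr1a at -2.43, the cartilage proteins Ucma and Cytl1 at -2.36 and -2.27, the basal keratin Krt5 at -2.29, the serpin Serpinb5 at -2.17 and the immunity-related GTPase Iigp1 at -2.15.

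**Figure D3:**
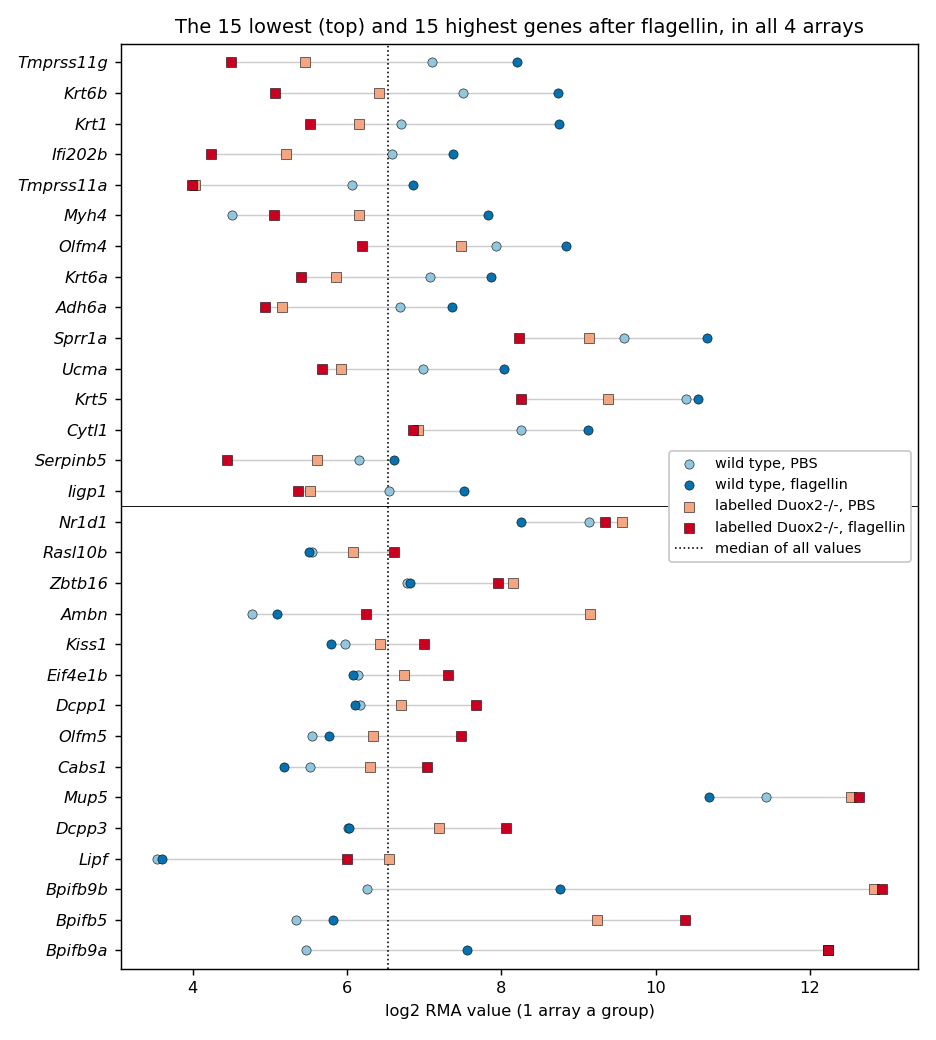
Log2 values of the 15 lowest ranked genes (top) and the 15 highest (bottom) by the difference after flagellin, leaving out receptors, predicted or clone-named genes and small RNA genes, in all 4 arrays (circles wild type, squares labelled Duox2-/-; the pale shade is PBS and the dark shade flagellin), with the median of all values dotted. In 14 of the 15 lowest genes both circles lie right of both squares, Myh4 being the exception, and in the 15 highest plotted both squares lie right of both circles.

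Squamous epithelium gave the lowest median of all 52 lists examined. Of its 23 matched genes 12 were at least 2-fold lower and none at least 2-fold higher, with a median of -1.14. The background over all matched genes was 1.18% lower and 0.476% higher. These 2 shares stand beside the flagellin counts of every list below as well. Krt10, which pairs with Krt1, had 8.08 in wild type and 5.94 in the array labelled Duox2-/- (-2.14). Krt13 and Krt4, the keratin pair of moist squamous epithelium, differed by -2.10 and -1.79. Dsg3 and Dsc3, the cadherins of desmosomes, differed by -2.14 and -1.28. Among the other cornified envelope genes Krtdap was at -1.88, Sprr3 at -1.42 and Lor at -1.14. Under PBS 4 of the 23 were at least 2-fold lower and none higher, with a median of -0.03 and a background of 0.226% lower and 1.34% higher. Not all members shared this: Ivl at 0.24, Flg2 at 0.44, Tgm3 at 0.73 and Krt16 at 0.87 were dim in all arrays. The mean log2 level of the list was 6.80 in wild type and 5.73 in the array labelled Duox2-/- after flagellin, beside 6.15 and 5.93 under PBS. Whether an array held more squamous tissue or more RNA of these genes per cell cannot be told apart in bulk tissue, and the same holds for every cell marker below.

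Basal cells, the stem cells under airway epithelium, had 3 of 12 markers at least 2-fold lower. Krt5 had 10.55 in wild type and 8.26 in the array labelled Duox2-/- (-2.29), Krt15 9.10 and 7.31 (-1.80), and Krt14 8.84 and 7.48 (-1.36). Trp63, the transcription factor that marks these cells, differed by -0.64, and the list median was -0.41. The 3 keratins were lower under PBS too, at -1.02, -0.69 and -0.76. Over the whole keratin family the pattern was uneven. Of 48 matched keratin genes 9 were at least 2-fold lower and none higher, but 33 were above 0 and the family median was 0.28, with most members dim. Under loess the median was 0.02, with 24 above 0. Of 7 matched Tmprss11 proteases 4 were at least 2-fold lower, and the 3 others, Tmprss11c, Tmprss11e and Tmprss11f, were above 0 and dim. The count was 3 under loess, and 2 members were above 0 under centring, loess and quantile normalisation.

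Among genes of antigen presentation to helper T cells, those past the size were all lower. MHC class II molecules are made of an alpha and a beta chain, travel with the invariant chain Cd74 and receive peptides after the protease Ctss has trimmed that chain. H2-Aa had 9.54 in wild type and 7.40 in the array labelled Duox2-/- (-2.14), and H2-Ab1 had 9.54 and 7.50 (-2.04). Cd74 differed by -1.83, H2-Eb1 by -1.16 and Ctss by -1.11, so that 5 of 10 matched genes were at least 2-fold lower. Under PBS the values of H2-Aa were 8.81 and 8.35 and those of H2-Ab1 8.82 and 8.23. For these 5 genes, chosen by their difference, the flagellin array labelled Duox2-/- was the lowest of the 4 and the wild-type flagellin array the highest, as in 139 of the 206 lower genes. The other 5 members, Ciita, the master activator of these genes, H2-Ea, H2-DMa, H2-Oa and H2-Ob, were dim and differed by -0.04 to 0.16.

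Promoters of class II genes carry a short series of conserved elements, of which the Y box, bound by NF-Y, is among the best known. H2-Aa and H2-Eb1 are shown as 2 of the 5 class II genes past the size with a window in the RefSeq promoter table (GRCm38.p6) that holds a match. The stretches are chr17:34287824-34287943 on the minus strand for H2-Aa and chr17:34305747-34305866 on the plus strand for H2-Eb1, each 120 bases long and written 5′ to 3′ along the gene's strand. Capitals mark the letters CTGATTGG, which start 51 bases before the gene start in H2-Aa and 62 bases before it in H2-Eb1.
H2-Aa: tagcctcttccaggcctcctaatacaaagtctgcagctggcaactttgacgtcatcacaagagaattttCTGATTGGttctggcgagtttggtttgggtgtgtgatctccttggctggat
H2-Eb1: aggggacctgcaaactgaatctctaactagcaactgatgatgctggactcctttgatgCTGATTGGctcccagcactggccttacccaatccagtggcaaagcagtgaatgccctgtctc
Searched on both strands of the 250 bases before the gene start, these letters occurred in 3.83% of 32851 promoter windows and in 5.52% of the 9993 ranked genes with a window. Of the 156 genes at least 2-fold lower with a window, 9 or 5.77% held them. The share among the lower genes was thus near that of all ranked genes, and a match describes the letters and not a bound site.

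Markers of monocytes and macrophages, which carry class II molecules, were mostly below 0 in the same array. Of 18 matched markers 5 were at least 2-fold lower and 17 were below 0, with a median of -0.59. The chemokine receptor Ccr2 had 7.35 in wild type and 5.35 in the array labelled Duox2-/- (-2.001), and the integrin Itgam had 8.06 and 6.35 (-1.72). Adgre1, the F4/80 antigen, differed by -1.44, the clotting factor subunit F13a1 by -1.40 and the mannose receptor Mrc1 by -1.03. Marco, a dim scavenger receptor, was the 1 marker above 0, at 0.83. The mean level of the list was 7.25 in wild type and 6.54 in the array labelled Duox2-/- after flagellin, against 6.81 and 6.62 under PBS. The part of these cells in the class II difference was not tested.

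MHC class I loading genes had a median of -0.34 (-0.22 under quantile normalisation), with 12 of 13 below 0. Under PBS 12 of 13 were below 0 as well, with a median of -0.16. B2m, the light chain shared by all class I molecules, had 11.68 in wild type and 10.32 in the array labelled Duox2-/- (-1.36), and 10.87 and 10.83 under PBS. It was the 1 gene of this list past the size, while the peptide transporter Tap1 was at -0.58 and the immunoproteasome subunit Psmb8 at -0.58. Nlrc5, an activator of class I genes, was at 0.74 in the brightest of its 19 probe sets and at 0.03 in their mean. B2m lies near Duox2 on chromosome 2. Among the 89 ranked genes within 5 Mb of Duox2 on either side, 3 were at least 2-fold lower (B2m, AA467197 and Ehd4), 0 were higher and the median was -0.17. Over all ranked genes 1.65% were lower and 0.353% higher, and the median was -0.12.

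Chemokines past the size were all lower in the array labelled Duox2-/- after flagellin. Of 33 matched chemokines 9 were at least 2-fold lower and none higher, with a median of -0.45 and 22 below 0. Ppbp, a neutrophil attractant also stored in platelets, had 8.64 in wild type and 6.78 in the array labelled Duox2-/- (-1.86), beside 6.67 and 6.17 under PBS. Ccl20, which attracts cells bearing Ccr6, had 8.44 and 7.31 (-1.13), beside 5.97 and 6.41 under PBS, so that the genotype difference was above 0 without flagellin. Ccl12 was at -1.62, Cxcl16 at -1.29, Ccl5 at -1.18, the mucosal chemokine Ccl28 at -1.18, Cxcl10 at -1.12, Cxcl5 at -1.11 and Ccl6 at -1.11. Cxcl2, a neutrophil attractant, had 6.83 and 5.90 and missed the size at -0.93. The 11 chemokines above 0, among them Cxcl1 at 0.58 and Ccl4 at 0.52, were dim.

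In the NF-kB pathway 17 of 21 matched genes were below 0, with a median of -0.48. Tnip3, an inhibitor of the pathway that the pathway itself induces, was the 1 member past the size, with 7.58 in wild type and 6.15 in the array labelled Duox2-/- (-1.44), beside 5.49 and 5.28 under PBS. Birc3, an inhibitor of apoptosis, was at -0.94, the subunit Rel at -0.88, the inhibitor Nfkbia at -0.83 and the ubiquitin-editing enzyme Tnfaip3 at -0.68. Under PBS the list median was -0.07 and none of its members passed the size. The subunit Rela was at -0.19 and Relb at 0.01.

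The promoters of Tnip3 and Ccl20 are shown because both genes were highest in the wild-type flagellin array and both hold a kB-type match. The stretches, from RefSeq on GRCm38.p6, are chr6:65590278-65590397 for Tnip3 and chr1:83116646-83116765 for Ccl20, both on the plus strand. Capitals mark a match to GGGNNTTCC on the opposite strand, which starts 53 bases before the gene start in Tnip3 and 80 bases before it in Ccl20.
Tnip3: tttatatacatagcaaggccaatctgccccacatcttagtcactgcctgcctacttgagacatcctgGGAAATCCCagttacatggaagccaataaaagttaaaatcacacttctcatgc
Ccl20: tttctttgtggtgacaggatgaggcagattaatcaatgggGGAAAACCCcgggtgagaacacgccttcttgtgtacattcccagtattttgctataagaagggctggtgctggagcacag
On both strands of the 250 bases before the start, this motif was found in 4.98% of the 32851 windows, in 6.93% of the ranked genes with a window and in 16 of the 156 lower genes, or 10.3%. No printed stretch holds both motifs, and these shares are given without a test.

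Most cytokine genes were dim. Of 27 matched genes 4 reached the level for ranking, against 17 of 33 chemokines, and 1 was at least 2-fold lower, Il1f9 (now called Il36g), an epithelial cytokine of the interleukin-1 family, with 7.04 in wild type and 5.23 in the array labelled Duox2-/- (-1.81). Of the other ranked cytokines Il1b was at -0.59, Csf1 at -0.44 and Il33 at 0.10, and Tnf, dim, was at -0.05. The list median was 0.21, which loess brought to -0.02, while all unranked genes had a median of 0.28.

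Antimicrobial and acute phase genes had 10 of 29 members at least 2-fold lower and none higher, with a median of -0.40. Chil4 and Chil3, chitinase-like proteins, differed by -1.59 and -1.46, and Chil1 by -1.45. Serpina3n, an acute phase protease inhibitor, had 11.62 in wild type and 10.35 in the array labelled Duox2-/- (-1.26). Its values under PBS were 10.89 and 9.26 (-1.63), and Chil4 under PBS differed by -1.61, so both genes differed by about as much without flagellin. The peptidoglycan receptor Pglyrp1 was at -1.16, haptoglobin (Hp) at -1.02 and Lcn2, which binds bacterial iron carriers, at -1.01. Their PBS differences were -0.09, -0.98 and -0.60, so Hp too differed by about as much without flagellin. Of the beta-defensins Defb4 had 5.94 and 3.61 (-2.33) and Defb1 6.21 and 4.87 (-1.34). These 2 were dim and are named because of their values. Of the brightest secreted defence proteins, the iron-binding Ltf had 12.56 and 11.69 (-0.87), the lectin Reg3g was at -0.29 and Bpifa1 at -0.13. Pigr, which carries IgA across the epithelium and was chosen after its values were seen, had 10.61 and 9.08 (-1.54).

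Complement genes had 2 of 20 members past the size. Cfb, factor B of the alternative pathway, had 9.06 in wild type and 7.42 in the array labelled Duox2-/- (-1.64), beside 7.15 and 6.93 under PBS, and C3ar1, the receptor of the C3a fragment, was at -1.60. Mucus genes had 3 of 16 lower: the membrane mucin Muc4 at -1.48, the gel-forming mucin Muc5ac at -1.33 and Muc1 at -1.06. Muc5b, the other gel-forming mucin of the airway, was at -0.41, and Tff1, a trefoil peptide, at 0.92. The median of the mucus list was -0.12 (-0.03 under loess), with 5 of 16 above 0, and -0.23 under PBS. Muc4, Muc5ac and Muc1 were at -0.69, -0.41 and -0.54 under PBS.

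Neutrophil markers lay below 0 after flagellin and above 0 under PBS. Of 22 matched markers 2 were at least 2-fold lower, Ngp at -1.45 and Lcn2 at -1.01, and 18 were below 0, with a median of -0.48. Under PBS the median was 0.37. S100a8 was at -0.58, S100a9 at -0.49, Cxcr2 at -0.49 and Retnlg at -0.55. The mean level of the list was 6.85 in wild type and 6.46 in the array labelled Duox2-/- after flagellin, and 5.88 and 6.26 under PBS. The part of neutrophils in the chemokine and antimicrobial differences was not tested. Genes of leukocyte adhesion had their median at -0.55, with Itgam at -1.72, the endothelial ligand Vcam1 at -0.82 and Icam1 at -0.34, and endothelial markers had a median of -0.42 with 15 of 17 below 0.

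The sensors of bacteria were mostly below 0 in both treatments. Of 27 matched sensors and adaptors 22 were below 0 after flagellin and 21 under PBS, with medians of -0.33 and -0.24. After flagellin 4 were at least 2-fold lower, against 1.18% of all matched genes. Tlr4, the receptor of lipopolysaccharide, had 7.70 in wild type and 6.24 in the array labelled Duox2-/- (-1.46). The others were its partner Ly96 (-1.33), the double-stranded RNA receptor Tlr3 (-1.06) and the adaptor Tirap (-1.01). Cd14 was at -0.99, the lipopolysaccharide-binding protein Lbp at -0.97 and the common adaptor Myd88 at -0.95. Cd14 was the 1 member past the size under PBS, at -1.23. The inner flagellin sensors Naip5, Naip6 and Nlrc4 were dim and differed by -0.47, -0.20 and 0.19. The flagellin receptor Tlr5 was not analysed here.

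NADPH oxidase and peroxidase genes as a group had a median of -0.01, with 9 of 18 below 0. Cybb, the catalytic subunit of the phagocyte oxidase, was the 1 member past the size, with 8.90 in wild type and 7.31 in the array labelled Duox2-/- (-1.59), beside 7.78 and 7.53 under PBS. Its partner Cyba was at -0.15 and the activator Ncf1 at -0.05, so the subunits of this oxidase did not share the difference. The neutrophil peroxidase Mpo was at -0.74.

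Targets of NRF2, the regulator of the oxidant response, leaned below 0 with and without flagellin, but few passed the size. Of 26 matched targets 23 were below 0 after flagellin and 26 under PBS, with medians of -0.46 (-0.29 under loess) and -0.41, and 3 were at least 2-fold lower after flagellin against 0 under PBS. The cystine transporter Slc7a11 had 8.81 in wild type and 7.62 in the array labelled Duox2-/- (-1.19), the carbonyl reductase Cbr3 was at -1.14 and the glutathione transferase Gstp1 at -1.08. Gstp1 and Cbr3 had differences of -0.81 and -0.82 under PBS. Hmox1 was at -0.67 and Nqo1 at 0.02. Among 19 enzymes that remove peroxide or superoxide, Gpx2, the epithelial glutathione peroxidase, was the 1 member past the size, with 9.08 and 7.89 after flagellin (-1.19) and 9.09 and 7.94 under PBS (-1.15). Catalase (Cat) was at -0.78 and the list median was -0.24.

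Interferon-stimulated genes were mostly below 0 in both treatments as well. Of 29 matched genes 24 were below 0 after flagellin and 26 under PBS, with medians of -0.45 and -0.56. After flagellin 5 were at least 2-fold lower, and 3 under PBS. Iigp1 had 7.52 in wild type and 5.36 in the array labelled Duox2-/- (-2.15), the GTPases Irgm1 and Gbp3 were at -1.31 and -1.30, Trim30a at -1.30 and Ifit3 at -1.18. The 5 are a minority of the list: the antiviral genes Ifit2 and Cmpk2 were at 0.02 and 0.13 and Mx1, dim, at -0.62. Heat shock chaperones were all 13 below 0, with a median of -0.39, Hspb1 at -1.43, Hsph1 at -1.31 and Chordc1 at -1.15.

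The genes higher in the array labelled Duox2-/- were led by gland secretions. Bpifb9a, a member of the family of secreted lipid-binding BPI fold proteins, had 7.56 in wild type and 12.24 in the array labelled Duox2-/-, a difference of 4.68 or 25.6-fold, and Bpifb9b had 8.76 and 12.94 (4.18). Bpifb5 had 5.82 and 10.39 (4.56). The differences of the 3 genes under PBS were 6.77, 6.57 and 3.91, and in each both arrays labelled Duox2-/- were above both wild-type arrays. Within wild type the flagellin array was above the PBS array, with PBS values of 5.47 for Bpifb9a, 6.26 for Bpifb9b and 5.33 for Bpifb5. Lipf, the gastric lipase, was at 2.40, Dcpp3 and Dcpp1, proteins of salivary demilune cells, at 2.04 and 1.57, and the pheromone carrier Mup5 at 1.94. Lipf was dim in both flagellin arrays, at 3.60 in wild type and 6.00 in Duox2-/-. It reached the level for ranking only in the PBS array labelled Duox2-/-, at 6.54. Of 29 matched gland genes 9 were at least 2-fold higher and none lower, and 20 were above 0. The list median was 0.24 and its mean 0.88, which shows how much a few members carry. The abundant odorant-binding proteins Obp1a and Obp2a were at -0.14 and 0.16, and the family members Bpifb3, Bpifb4 and Bpifb6, all near the top of the scale, at 0.08, -0.10 and -0.05.

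The starts of Bpifb9a and Bpifb9b are shown since these neighbouring genes move together and are nearly identical there. The stretches, from RefSeq on GRCm38.p6, are chr2:154257759-154257878 and chr2:154307124-154307243, both on the plus strand. Capitals mark bases with no identical partner in the other sequence after alignment.
Bpifb9a: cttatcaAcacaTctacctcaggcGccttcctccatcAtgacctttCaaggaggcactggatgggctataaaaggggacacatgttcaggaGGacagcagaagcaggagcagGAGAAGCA
Bpifb9b: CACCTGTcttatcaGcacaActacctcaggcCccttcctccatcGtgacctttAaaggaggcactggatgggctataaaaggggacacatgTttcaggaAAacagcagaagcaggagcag
Over the printed stretch 105 of 113 aligned columns were identical (92.9%), and over the 250 bases before the start 230 of 243 (94.7%). The values of genes this alike are uncertain, since probes of 1 may also bind the other.

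Other higher genes came from several groups. Cabs1, a calcium-binding protein of spermatids, was at 1.86, Olfm5 at 1.70, the translation factor Eif4e1b at 1.23 and the neuropeptide gene Kiss1 at 1.21. Nr1d1, a repressor of the circadian clock, had 8.25 in wild type and 9.34 in the array labelled Duox2-/- (1.095), while the other 15 clock genes were within the size, from Bhlhe40 at -0.85 to Dbp at 0.42. Zbtb16, a transcription factor induced by glucocorticoids, had 6.81 and 7.95 (1.14), while 11 of the 14 genes of that list were below 0. Enamel and dentine genes had a median of 0.63 (0.39 under loess), with 8 of 9 above 0 and 4 of 9 ranked. Ambn, the enamel protein ameloblastin, had 5.09 and 6.24 (1.15, and 0.94 under loess), and Odam, dim, was at 1.07. Tooth genes were higher still in the PBS array labelled Duox2-/-, where Ambn had 9.15 against 4.77 in wild type. The mean level of the tooth list was 5.09 in wild type and 5.72 in the array labelled Duox2-/- after flagellin, and its part in the gland difference was not tested.

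Olfactory genes were mostly above 0. Of 16 markers of mature olfactory neurons 14 were above 0 and none passed the size, with a median of 0.18 (0.32 under loess): Omp was at 0.17, the channel subunit Cnga2 at 0.16 and Kirrel2 at 0.38. Markers of olfactory progenitors and immature neurons had 11 of 12 above 0 and a median of 0.28. These neuron markers are bright, a level at which most genes were below 0. Under PBS the mature neuron list had a median of -0.07, while the progenitor list had one of 0.17, again with 11 of 12 above 0. Of 1027 matched olfactory receptor genes 802 were above 0, with a median of 0.29, and 37 were at least 2-fold higher and 4 lower. The 7467 unranked genes had a median of 0.28. Under loess the medians were 0.14 for the receptors and 0.05 for the unranked genes. The 413 ranked receptors had a median of 0.24, against -0.12 for all ranked genes. Under PBS the matched receptors had a median of 0.39, with 135 of 1027 at least 2-fold higher, against 1.34% of all matched genes. Trace amine receptors, 13 of 13 above 0, had a median of 0.47. Of the 44 ranked genes past the size, 17 were olfactory receptors and 1 a vomeronasal receptor. Sustentacular and Bowman's gland markers of the same epithelium had a median of -0.32 (-0.20 under loess) and ciliated cell markers -0.26.

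Genes of skeletal muscle made up most of those past 2-fold in opposite directions in the 2 treatments. Myh4 had 7.83 in wild type and 5.05 in the array labelled Duox2-/- after flagellin (-2.78), but 4.50 and 6.15 under PBS (1.65). Myh1, another fast myosin, had 6.20 and 4.53 (-1.67) after flagellin and 4.07 and 8.49 (4.41) under PBS. The calcium pump Atp2a1 and the sarcomere protein Ttn were at -1.85 and -1.50 after flagellin and at 3.18 and 3.26 under PBS. Of 26 matched muscle genes 4 were at least 2-fold lower after flagellin, with a median of -0.26 (-0.40 under loess). Not all shared this direction, since 15 were below 0 and 11 above. Under PBS all 26 were above 0, with a median of 1.58, and 19 were at least 2-fold higher, against 1.34% of all matched genes. The mean level of the list was 6.27 in wild type and 5.86 in the array labelled Duox2-/- after flagellin, and 5.33 and 7.12 under PBS. Muscle signal was thus highest in the PBS array labelled Duox2-/- and lowest in wild-type PBS. Without the muscle, tooth, squamous and gland genes the ranked counts after flagellin were 190 lower and 36 higher.

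The genotype differences of the 2 treatments share no array, so they can be set side by side. Of the 206 genes lower after flagellin, 22 were also at least 2-fold lower under PBS, which is 10.7% of the flagellin genes and 62.9% of the 35 PBS genes. Of the 44 genes higher after flagellin, 20 were also higher under PBS, or 45.5% of the former and 14.2% of the 141 PBS genes. Olfactory or vomeronasal receptors were 12 of these 20, and 419 of all 12471 ranked genes. Below 0 under PBS were 182 of the 206, or 88.3%, against 57.7% of all ranked genes. The median of the 206 under PBS was -0.46. Over the ranked genes, which are not independent, Pearson's r between the 2 differences was 0.530 and Spearman's rho 0.502. Lower in both were Tmprss11g, Tmprss11a, Krt6b, Krt13, Krt5, Adh6a, Ifi202b, Iigp1, Chil4, Serpina3n and Gpx2 among others. Higher in both, besides the receptors, were Bpifb9a, Bpifb9b, Bpifb5, Lipf, Ambn, Dcpp3, Mup5 and Zbtb16. A PBS difference within 0.5 of 0 was common among the 206, given that median. Examples were H2-Aa, B2m, Cfb, Cybb, Tnip3 and Ccl20, and also Krt10 (-0.29), Sprr1a (-0.44) and Olfm4 (-0.46). H2-Ab1, at -0.59 under PBS, lay outside. Whether the 2 genotype differences differ for a gene was not tested.

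**Figure D4:**
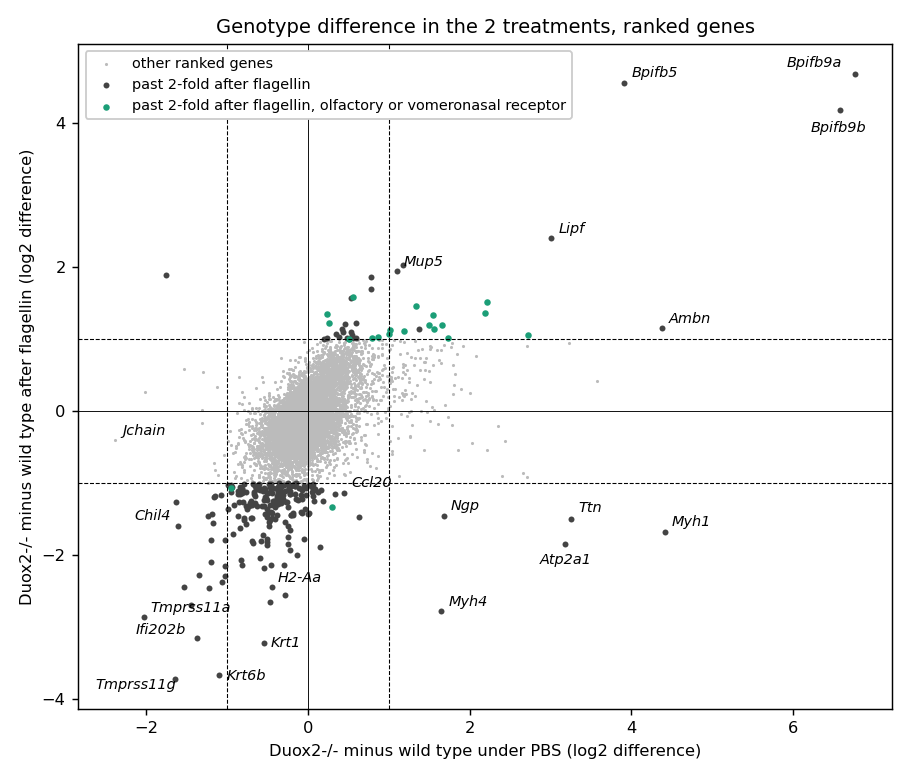
Genotype difference of each ranked gene under PBS (horizontal) and after flagellin (vertical), both as log2 Duox2-/- minus wild type with 1 array a side, with dashed lines at 2-fold and receptors in green. Most dark points below the lower dashed line lie left of 0, the Bpifb genes lie at the upper right, and Myh1, Myh4, Atp2a1, Ttn and Ngp lie at the lower right.

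Moxd2, a monooxygenase gene with a large flagellin difference in both genotypes, had 9.10 in wild type and 8.68 in the array labelled Duox2-/- after flagellin, beside 3.99 and 5.01 under PBS. Its genotype difference was -0.42 after flagellin and 1.02 under PBS, the latter past the size. After flagellin Ccl20, Cfb and Tnip3 were lower by more than 2-fold and Moxd2 was not. Flagellin minus PBS for Moxd2 was 5.10 in wild type and 3.67 in Duox2-/-, so it too was smaller in the latter. The same values were 2.48 and 0.90 for Ccl20, 1.91 and 0.48 for Cfb and 2.10 and 0.86 for Tnip3.

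Over the 52 lists, 37 had a median below 0, and 30 had one at or below -0.12, the median of all ranked genes. Of all ranked genes 33.2% were above 0, so a list median below 0 is also what most ranked genes showed. Lists with a median near or above 0 were mostly lists of dim genes. Mast cells (0.27), dendritic cells (0.30), T cells (0.13), B and plasma cells (0.14), platelets (0.23), adipocytes (0.17) and Schwann cells and glia (0.10) had 2 members past the size, the T cell receptor subunit Cd3g at -1.75 and Ppbp, counted among platelet genes as well, at -1.86. Under loess the medians of T cells, B and plasma cells and glia turned to -0.03, -0.11 and -0.01, and those of dendritic cells, platelets, mast cells and adipocytes shrank to 0.03, 0.02, 0.09 and 0.09. Collagen and matrix genes had a median of -0.02 (0.02 under quantile normalisation), cartilage and bone markers -0.01 and immediate early genes -0.04, with no listed member past the size. Among the cartilage markers Hapln1 was at -0.92, Acan at -0.83 and Cnmd at -0.70, while Col9a2 was at 0.52. Outside the list Ucma, Cytl1 and Col10a1, a collagen of growth cartilage at -1.46, were past it. Fibroblast markers were at -0.22 and cell cycle genes at -0.17 (-0.29 under loess), where both had been at 0.35 under PBS.

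**Figure D5:**
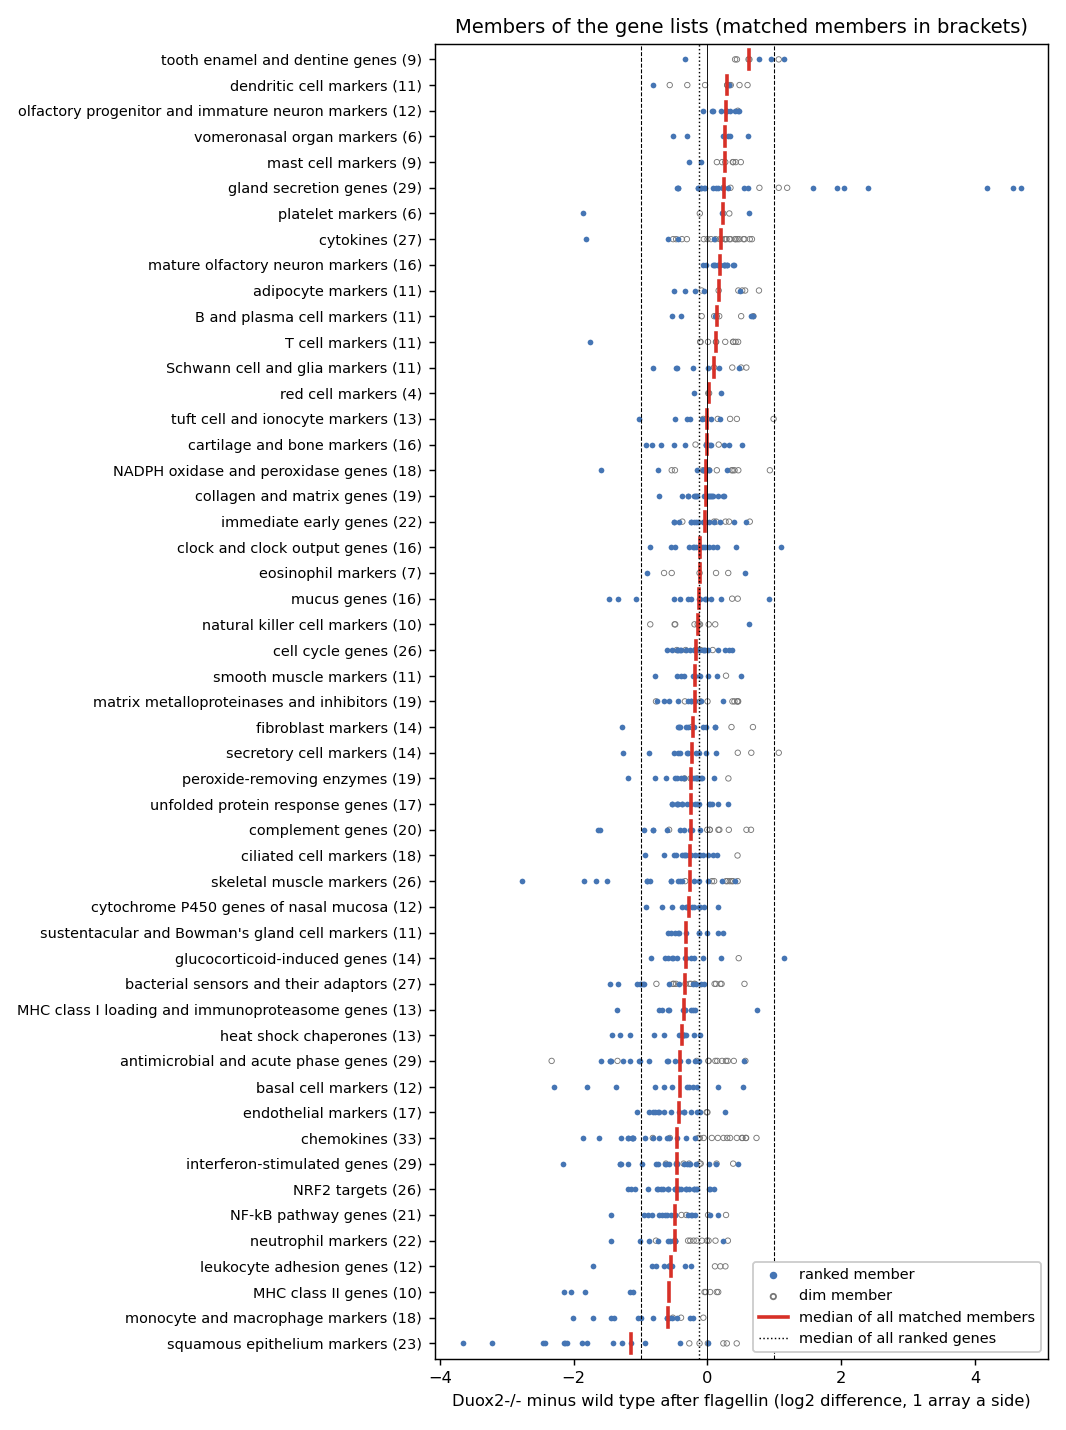
Log2 difference after flagellin, Duox2-/- minus wild type, of every matched member of each list (filled for ranked genes, open for dim ones), with the list median in red, the median of all ranked genes dotted and 2-fold dashed. Squamous markers lie furthest left with a median of -1.14, and gland genes hold the 3 points furthest right.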

How the data were processed

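RNA was extracted with TRIzol, labelled with biotin and hybridised to Affymetrix mouse arrays that read whole transcripts, 1 array a group, per the labels. The deposited values are log2 signals that the authors made with RMA in Affymetrix Expression Console 1.1, per the submitters' processing notes. RMA corrects background, forces a common probe distribution and summarises each probe set, so it can shrink large differences and gives no background level. No values were changed further. Of 35556 probe sets, 21789 had 1 gene, 1621 several and 12146 none listed. The 999 genes with several probe sets took the probe set whose mean over the 4 arrays was highest. Genes were ranked if 1 value exceeded 6.52, and counted at 2-fold. The number of arrays limits the precision. p-values were not computed.

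The genes named by rule were the 15 lowest and 15 highest ranked genes and at most 10 each way past the size in both treatments. The rule added at most 4 leading members of each list and a fixed set of genes around Duox2. Other list members, past the size or within it, were named beyond this rule. Olfactory and vomeronasal receptors, predicted genes and small RNA genes were summarised as families. Members, lists and rules were chosen with earlier results of these data known. Of 928 list memberships 842 were matched, and the others were not analysed here. Alternatives were centring of each array, cyclic loess and quantile normalisation (limma 3.58.1 in R 4.3.3), no filter, a filter on the mean of the flagellin arrays, the mean of a gene's probe sets, and leaving out receptors or the muscle, tooth, squamous and gland genes. Counting was tested on simulated data. Python 3.11.15 with numpy 2.4.6, pandas 2.3.3 and matplotlib 3.10.9 was used. Promoters came from RefSeq on GRCm38.p6.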

Additional observations from a re-analysis of the deposited data

Results flagged for a closer look

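For 6 genes the genotype difference was past 2-fold in opposite directions in the 2 treatments, and with 1 array a group the difference between the treatments was not tested. After flagellin the log2 differences, Duox2-/- minus wild type, were -2.78 for Myh4, -1.85 for Atp2a1, -1.67 for Myh1 and -1.50 for Ttn, all genes of skeletal muscle. Under PBS these were 1.65, 3.18, 4.41 and 3.26. Ngp, a granule gene of neutrophils, was at -1.45 after flagellin and 1.68 under PBS. The gene 5430401F13Rik, named because of its values, went the other way, at 1.90 and -1.75. Its log2 values after flagellin were 10.19 in wild type and 12.09 in the array labelled Duox2-/-, against 10.06 and 8.31 under PBS.

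Probe sets that map to more than 1 gene or to none listed were in no comparison above. Of 5957 such probe sets over the ranking level, 192 (3.22%) were at least 2-fold lower and 142 (2.38%) at least 2-fold higher in the flagellin array labelled Duox2-/-. Both shares are above those of the ranked genes, 1.65% and 0.353%, and the difference was not tested.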

How the results depend on the processing

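The count of genes at least 2-fold lower was 206, and 150 to 245 under the 8 alternatives, with 173 of the 206 among the 200 under loess and 180 among the 200 under quantile normalisation. The count of genes at least 2-fold higher, 44, was 39 under loess, 47 under quantile normalisation and 30 under centring, of which 27, 32 and 30 were among the 44. It was 95 with no filter on low values, 26 with a filter on the mean of the 2 flagellin arrays and 26 without receptor genes. Lower genes were 71.3% of those past the size with no filter, against 82.4%. The 20 genes higher in both treatments became 35 with no filter, 8 without receptors and 13 without the muscle, tooth, squamous and gland genes. The 22 lower in both became 12 with the filter on the flagellin mean. Of 239 named genes, loess took 9 under the size and brought 4 past it; among the former were Ambn (0.94), Gstp1 (-0.91), Lcn2 (-0.90) and Muc1 (-0.90), and among the latter Cxcl2 (-1.15). Eif4e1b was at 0.85 with probe sets averaged. No paired analysis was possible because each group has 1 array and the labels give no replicate numbers. Batches of the arrays were not analysed here. Signal near background limits the sizes of dim genes, and no value has a replicate error.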
